A study of Mus musculus with 12 samples.

Results

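Toll-like receptors sense microbial products and molecules released by damaged tissue, and nearly all of them signal through the adaptor Myd88. This account follows 9 mouse receptors (Tlr1, Tlr2, Tlr3, Tlr4, Tlr5, Tlr6, Tlr7, Tlr9 and Tlr13) and Myd88 in fibroblast-like synoviocytes, which line the joint and belong to its connective tissue. These 10 genes were taken by symbol from the 53341 genes of the deposited expression table, and each matched 1 row. All 10 were among the 18139 genes that reached 10 normalized counts in 3 or more libraries and were tested.

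The 12 RNA libraries formed 4 groups of 3. SoxC_KO_TNF cells carried the SoxC knockout, were given the adenovirus Ade5CMV-Cre and were stimulated with TNF, and SoxC_KO cells were given the same virus without TNF. The control_TNF cells were given Ade5CMV-eGFP and TNF, and the control cells Ade5CMV-eGFP alone. Stimulation was with human recombinant TNF at 10 ng/mL and lasted 16 h. Human TNF is known to bind mouse Tnfrsf1a but not mouse Tnfrsf1b. All cells came from the synovium of mice called SoxC in the labels and all received a virus, so no library shows cells without one. The CMV promoter of these viruses is not restricted to a cell type. The SoxC genes are Sox4, Sox11 and Sox12. The sources used here do not give the part of each that Cre removes, the age of the mice, or whether a group's libraries are from different animals. P-values therefore measure only how far these libraries differ among themselves, a spread that may be technical. The stated design question was which parts of the TNF response depend on the SOXC factors.

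Receptors at the cell surface bind mostly bacterial cell wall parts: Tlr2 pairs with Tlr1 or Tlr6 to bind lipoproteins, Tlr4 binds lipopolysaccharide with the help of Ly96 and Cd14, and Tlr5 binds flagellin. Tlr3, Tlr7, Tlr9 and Tlr13 sit in endosomes and bind nucleic acids, and Tlr3 is the member that signals through Ticam1 and not through Myd88. Synovial fibroblasts are known to answer ligands of Tlr2, Tlr3 and Tlr4 with cytokines and matrix-degrading enzymes.

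The normalized totals were 19.59 to 23.11 M per library, and raw depths were not recovered from the file. Of the targeted genes, Sox4 was at 1020, 1086 and 601 in SoxC_KO_TNF against 1697, 3646 and 1625 in control_TNF libraries, and at 1432, 1433 and 548 in SoxC_KO against 4238, 4143 and 1857 in control libraries. Sox11 was at 75.1, 104.5 and 29.5 in SoxC_KO_TNF against 194, 248 and 138 in control_TNF libraries, and at 175, 157 and 26.8 in SoxC_KO against 269, 272 and 153 in control libraries. Sox12 was at 129, 159 and 86.5 in SoxC_KO_TNF against 278, 326 and 237 in control_TNF libraries, and at 229.7, 194 and 259 in SoxC_KO against 352, 342 and 162 in control libraries. With TNF the knockout libraries lay below the control libraries for all 3 genes. Without TNF they did so for Sox4, while Sox11 and Sox12 overlapped and Sox12 was higher in SoxC_KO replicate 3 than in control replicate 3. None of the 3 genes was called in either knockout comparison by limma. All 15 fibroblast-like synoviocyte markers were kept, with a summed level of 210600 to 571200 normalized counts. The libraries numbered 3 stood apart from the others in every group. Their summed level of 19 macrophage and monocyte markers, 14 of which were kept, was 3799 to 4561, against 1749 to 2442 in the libraries numbered 1 and 2. Their osteoclast marker sum was also higher, at 7624 to 9300 against 3595 to 5086, and their synoviocyte marker sum lower, at 210600 to 395800 against 406200 to 571200. Of the 7 osteoclast genes 5 were kept, and Dcstamp was listed at 0 in all SoxC_KO_TNF, SoxC_KO and control_TNF libraries. Their neutrophil marker sum, with 3 of 10 genes kept, was 1430 to 2389 against 503.9 to 1446. Of the defining macrophage genes, Lyz2 spanned 677 to 2438 and Csf1r 193 to 670, while Ptprc, the pan-leukocyte gene Cd45, stayed between 0 and 19.1. The macrophage gene Mrc1 was not raised in the libraries numbered 3, at 0 to 26.4 against 16.7 to 42.0 in the others. Hepatocyte markers reached 5015 in SoxC_KO_TNF replicate 1 and 692 in control_TNF replicate 2, against at most 69.75 in the other libraries. In RNA from whole cultures, more cells of a type and more RNA per cell cannot be told apart.

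Per kilobase of exon, the most abundant of the receptors was Tlr2, and Tlr4 and Tlr3 followed. Tlr2 averaged 979.8 normalized counts per kb in SoxC_KO_TNF and 359.8 in SoxC_KO cells, and 878.1 in control_TNF and 364.2 in control cells. Myd88 was at 441.2 and 460.5 per kb in SoxC_KO_TNF and SoxC_KO cells, and at 470.3 and 387.8 per kb in control_TNF and control cells. Tlr2 lay above Myd88 in every library of both TNF groups, whereas without TNF the Tlr2 and Myd88 libraries overlapped in both genotypes.

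Tlr3 and Tlr4 overlapped each other in all 4 groups. In SoxC_KO_TNF and control_TNF cells Tlr3 averaged 151.5 and 112.8 per kb, and Tlr4 146.1 and 109.2. In SoxC_KO and control cells Tlr4 averaged 78.69 and 103.2 per kb, and Tlr3 63.47 and 92.48. Tlr6 came next with 30.29 per kb in SoxC_KO_TNF, 38.48 in SoxC_KO, 31.53 in control_TNF and 37.54 in control cells, above Tlr1 with 12.76, 17.75, 12 and 23.86 per kb in those groups. The Tlr6 and Tlr1 libraries overlapped in control cells, and the Tlr3 and Tlr6 libraries in SoxC_KO cells. Tlr5 lay between 5.186 and 13.57 per kb by group and Tlr7 between 5.089 and 5.941, with Tlr5 above Tlr7 in every library of both groups without TNF and the genes overlapping in both TNF groups.

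**Figure D1:**
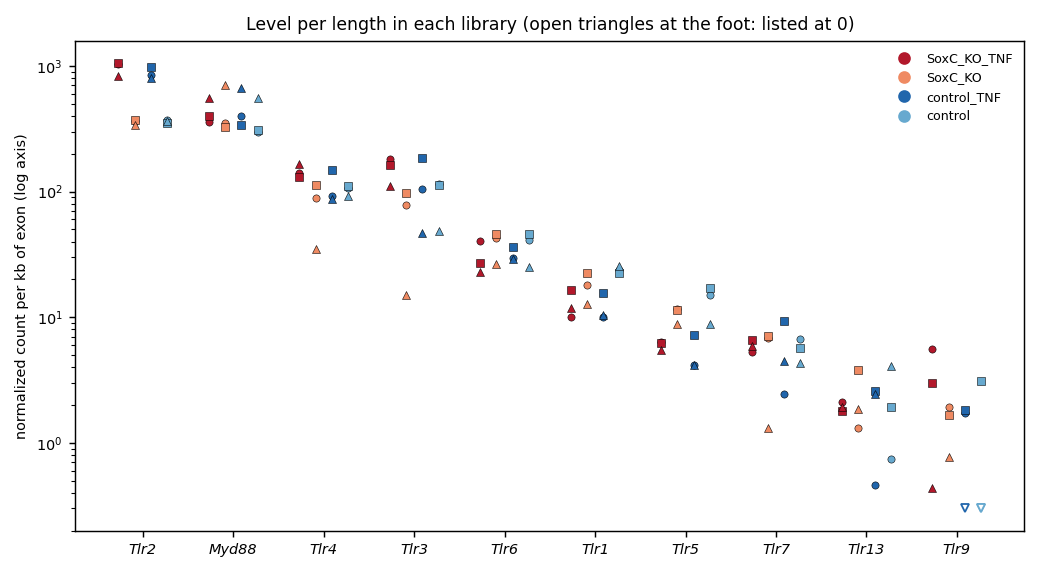
Normalized count per kb of exon on a log axis for each of the 10 genes, 1 point per library, with circles, squares and triangles for the libraries numbered 1, 2 and 3; open triangles at the foot mark libraries listed at 0. Tlr2 is highest in the TNF groups, where it averages 979.8 in SoxC_KO_TNF and 878.1 in control_TNF cells, and Tlr13 and Tlr9 are lowest.

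The endosomal receptors Tlr7, Tlr9 and Tlr13 were near the lower limit of the table. Tlr7, a receptor for single-stranded RNA, had normalized counts of 5.37 to 37.9 over the 12 libraries, and Tlr13, a mouse receptor for bacterial ribosomal RNA, 1.99 to 17.7. Tlr9, the receptor for unmethylated CpG DNA, had 19.4, 10.5 and 1.51 in SoxC_KO_TNF, 6.69, 5.79 and 2.68 in SoxC_KO, and 5.97, 6.34 and 0 in control_TNF libraries. In the control libraries Tlr9 was at 10.7 in replicate 2 and listed at 0 in the other two, a value the table gives to anything at or under 1. Of the receptors outside the 10, Tlr8 ranged from 0 to 8.18, Tlr12 was above 0 in control replicate 2 at 1.66, and Tlr11 was listed at 0 in all 12 libraries.

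TNF was associated with more Tlr2 in both genotypes. Tlr2 (mm10, as all gene positions here, chr3:83836272-83841767, minus strand) had 3154, 3187 and 2518 normalized counts in SoxC_KO_TNF libraries, against 1102, 1127 and 1025 in SoxC_KO libraries. It had 2573, 2949 and 2418 in control_TNF libraries, against 1116, 1069 and 1108 in control libraries. The lowest TNF library was more than 1000 normalized counts above the highest library without TNF in either genotype, and the 6 libraries without TNF lay between 1025 and 1127. On the log2(normalized count + 1) scale used throughout for differences, Tlr2 rose by 1.44 (SE 0.17), or 2.71-fold, with TNF in SoxC_KO cells (limma, Benjamini-Hochberg adjusted p = 0.00483). The rise was 1.26 (SE 0.17), or 2.40-fold, in control cells (limma adjusted p = 0.00971), and 1.35 (SE 0.12) averaged over the genotypes (limma adjusted p = 0.000255).

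Tlr2 was called, that is, had an adjusted p under 0.05, and was 1 of the 10 members to be so in each of these comparisons. Of all 18139 genes, 0.292% were called with TNF in SoxC_KO cells, 0.32% in control cells and 1.17% in the average in either direction, and 0.243%, 0.287% and 0.877% as higher. Deviations of same-numbered libraries from their group means correlated at 0.103 to 0.715 within the genotypes and at 0.0537 to 0.707 between them. The shift of the libraries numbered 3 alone can make these correlations positive, so they do not settle which libraries are pairs. The replicate block, which ties equal numbers over all 4 groups, gave Tlr2 a limma adjusted p of 0.000119 in SoxC_KO and 0.000267 in control cells. A block of the number within each genotype, which was added after the data were seen, gave 0.00182 and 0.00381 (limma). Over the alternative settings the rise was 1.38 to 1.55 in SoxC_KO cells, with an adjusted p of 0.000119 to 0.189 in limma, and 1.18 to 1.33 in control cells, with 0.000267 to 0.159. The call in control cells was lost without control_TNF replicate 1 (adjusted p = 0.0805, limma) or replicate 2 (0.0546), and without control replicate 1 (0.0673) or replicate 2 (0.0908). Both calls were lost when only the 2 groups compared were fitted, at a limma adjusted p of 0.189 in SoxC_KO and 0.159 in control cells, and without the libraries with hepatocyte transcripts, at 0.0637 and 0.109. The average over both genotypes was called in all 22 alternatives, at an adjusted p of at most 0.00574. The macrophage marker sum was 2172, 2442 and 3799 in SoxC_KO_TNF and 2018, 2222 and 4561 in SoxC_KO libraries, and 2223, 1834 and 4471 in control_TNF and 1749, 1753 and 3874 in control libraries. The sum was higher with TNF in 2 of 3 same-numbered SoxC_KO pairs and in 3 of 3 control pairs. Neutrophil, dendritic cell and B cell sums, with 3 of 10, 4 of 9 and 1 of 7 genes kept, were higher in 3 of 3 pairs of both genotypes. The synoviocyte, pericyte and smooth muscle, chondrocyte, and T and NK cell sums were lower in 3 of 3 pairs of both. The part of any of these sums in the Tlr2 difference was not tested.

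**Figure D2:**
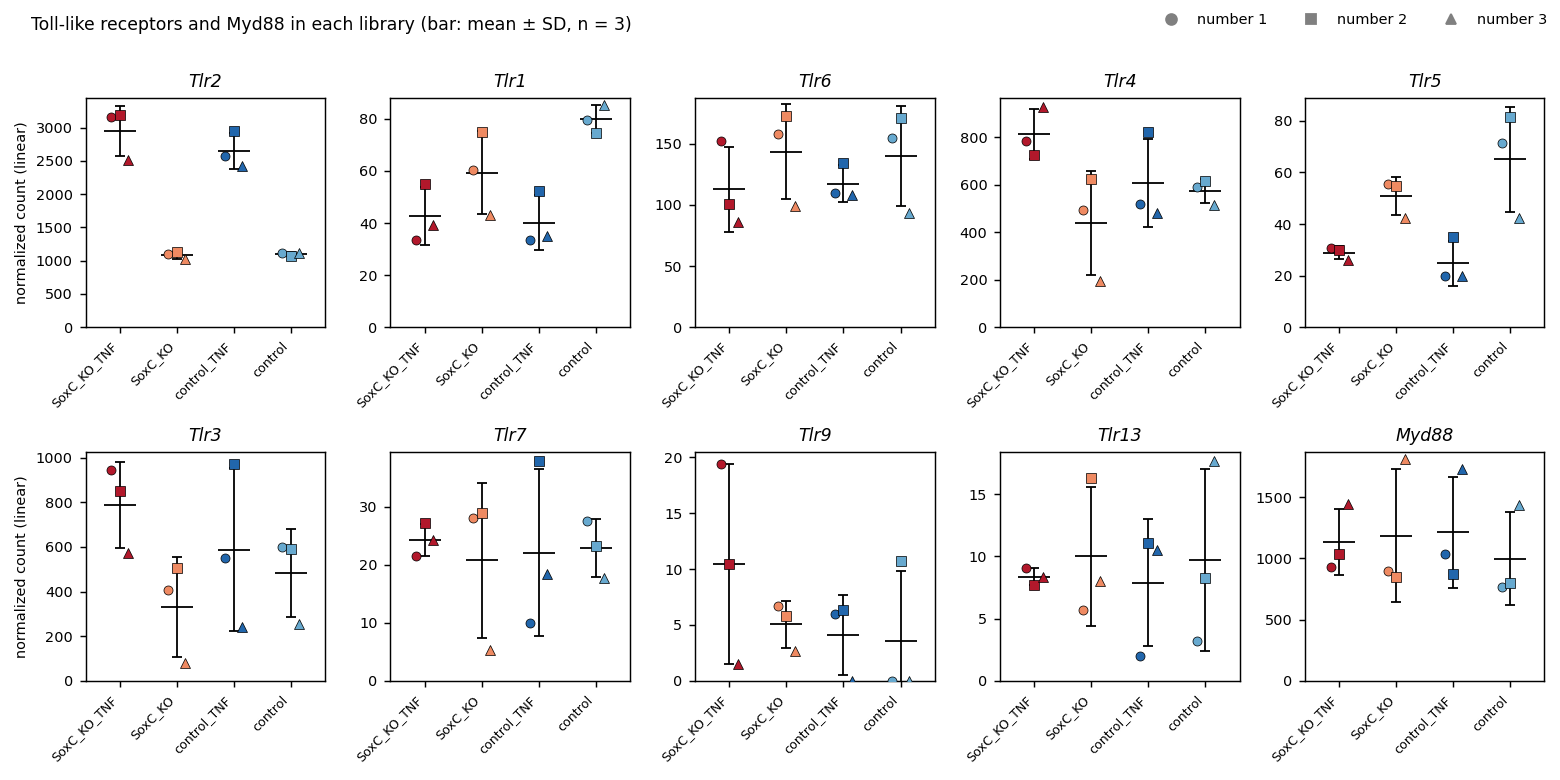
Normalized counts of each of the 10 genes in every library, with the mean and SD of each group of 3 as a bar and the marker shape giving the replicate number. The Tlr2 libraries with TNF lie at 2418 to 3187 and those without at 1025 to 1127, and the triangles of Myd88 are high in every group.

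Promoter sequence is shown for the gene called in every TNF comparison, Tlr2, and for Tlr5, Tlr3 and Tlr1, which were called in at least 1 comparison with the replicate block. The windows run from 250 bases before to 50 bases after a RefSeq start site on the GRCm38.p6 assembly and are written 5′ to 3′ on the strand of the gene. Capitals mark a loose form of the NF-kB motif, GGG and CC with any 5 bases between them, on either strand. Neither of the 2 Tlr1 windows holds it.
Tlr2 chr3:83841559-83841858, minus strand: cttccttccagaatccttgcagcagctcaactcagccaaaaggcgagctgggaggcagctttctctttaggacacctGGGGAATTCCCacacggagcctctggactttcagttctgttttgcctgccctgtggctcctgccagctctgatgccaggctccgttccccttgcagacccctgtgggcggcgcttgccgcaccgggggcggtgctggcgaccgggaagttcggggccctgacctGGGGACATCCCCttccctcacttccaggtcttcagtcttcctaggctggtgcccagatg
Tlr5 chr1:182954538-182954837, plus strand: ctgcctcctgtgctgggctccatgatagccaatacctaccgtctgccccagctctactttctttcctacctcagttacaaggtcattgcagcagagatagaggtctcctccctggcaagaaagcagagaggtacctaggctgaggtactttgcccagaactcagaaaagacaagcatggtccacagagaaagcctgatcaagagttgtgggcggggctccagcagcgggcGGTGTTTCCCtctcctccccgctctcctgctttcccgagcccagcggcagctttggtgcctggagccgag
Tlr3 chr8:45410331-45410630, minus strand: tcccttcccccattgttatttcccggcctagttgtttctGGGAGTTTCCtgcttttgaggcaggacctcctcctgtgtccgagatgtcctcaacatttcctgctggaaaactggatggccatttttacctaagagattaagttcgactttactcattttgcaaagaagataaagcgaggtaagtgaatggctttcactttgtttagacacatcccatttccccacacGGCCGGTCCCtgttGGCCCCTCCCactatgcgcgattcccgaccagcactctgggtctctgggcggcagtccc
Tlr1 chr5:64932650-64932949, minus strand: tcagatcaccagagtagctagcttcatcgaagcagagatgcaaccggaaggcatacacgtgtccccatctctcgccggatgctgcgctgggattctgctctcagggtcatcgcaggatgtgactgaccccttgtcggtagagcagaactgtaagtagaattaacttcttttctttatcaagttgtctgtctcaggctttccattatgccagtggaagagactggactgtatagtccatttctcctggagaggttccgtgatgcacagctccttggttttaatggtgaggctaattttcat
Tlr1 chr5:64933509-64933808, minus strand: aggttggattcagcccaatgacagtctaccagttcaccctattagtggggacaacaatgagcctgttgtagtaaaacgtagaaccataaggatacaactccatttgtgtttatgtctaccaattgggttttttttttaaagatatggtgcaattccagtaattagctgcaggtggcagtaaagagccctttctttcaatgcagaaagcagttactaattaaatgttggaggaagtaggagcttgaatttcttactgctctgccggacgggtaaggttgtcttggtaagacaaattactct

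The loose motif was in 50.8% of 32851 RefSeq windows of this length and in 4 of the 8 members with a window, Tlr2, Tlr3, Tlr5 and Tlr6. The percentages here are of windows and the member counts of genes. The 8 members had 10 windows, and a gene counted where any of its windows matched. Its first stretch of capitals in Tlr2 holds the palindrome GGGAATTCCC at -172 from the start site, and these 10 bases were in 13 windows, or 0.0396%. That motif was picked after the Tlr2 window had been read. A SOX motif, AACAAAG on either strand, was in 5.85% of windows and in 1 member, Tlr3, at -54 on the other strand. An interferon response motif, GAAA repeated after any 2 bases, was in 3.44% of windows and in Myd88 and Tlr6. These are matches of letters and not measured binding.

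Neither Tlr1 nor Tlr6, the partners of Tlr2, was called as higher with TNF. Tlr1 (chr5:64924679-64933563, minus strand), with which Tlr2 binds triacylated lipoproteins, had 33.7, 55.2 and 39.3 normalized counts in SoxC_KO_TNF libraries and 60.3, 74.9 and 42.9 in SoxC_KO libraries. It had 33.3, 52.2 and 34.9 in control_TNF libraries, against 79.7, 74.6 and 85.2 in control libraries. The control groups did not overlap, the SoxC_KO groups did, and Tlr1 was lower with TNF in all 3 same-numbered pairs of both genotypes. The log2 difference was -0.46 (SE 0.29, limma adjusted p = 0.787) in SoxC_KO and -1.0 (SE 0.29, limma adjusted p = 0.444) in control cells. The average, -0.73 (SE 0.21), had an adjusted p of 0.171 in limma without a block, 0.0347 with the replicate block and 0.0839 with the block within genotype, within a range of 0.0347 to 0.405 over the alternatives.

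Tlr6 (chr5:64952031-64960097, minus strand), the partner for diacylated lipoproteins, had 152, 100 and 86.1 normalized counts in SoxC_KO_TNF and 158, 173 and 99.3 in SoxC_KO libraries. It had 109, 135 and 109 in control_TNF and 155, 171 and 93.5 in control libraries. The groups overlapped in both genotypes, and neither log2 difference with TNF was called, at -0.34 (SE 0.31) in SoxC_KO and -0.21 (SE 0.31) in control cells. Per kb, Tlr2 exceeded Tlr1 64.1 to 104 times in SoxC_KO_TNF and 16.7 to 26.5 times in SoxC_KO libraries, and 62.7 to 85.7 times in control_TNF and 14.4 to 15.9 times in control libraries. Tlr2 exceeded Tlr6 25.6 to 39.2 times in SoxC_KO_TNF and 8.07 to 12.8 times in SoxC_KO libraries, and 27.1 to 29.1 times in control_TNF and 7.71 to 14.7 times in control libraries. These ratios follow from the values above and were not tested.

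Tlr5 (chr1:182954788-182976044, plus strand), the flagellin receptor, was lower in every TNF library than in any library of the same genotype without TNF. It had 30.6, 30.0 and 26.1 normalized counts in SoxC_KO_TNF libraries, against 55.6, 54.8 and 42.3 in SoxC_KO libraries. It had 19.9, 34.9 and 19.8 in control_TNF libraries, against 71.5, 81.3 and 42.2 in control libraries. The groups did not overlap in either genotype. The log2 difference was -0.79 (SE 0.32, limma adjusted p = 0.592) in SoxC_KO cells and -1.35 (SE 0.32, limma adjusted p = 0.2) in control cells. The control difference passed with the replicate block (limma adjusted p = 0.0233) and not with the block within genotype (0.0629), and the alternatives ran from 0.0233 to 0.95.

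The average Tlr5 difference, -1.07 (SE 0.23), lay at the threshold, with a limma adjusted p of 0.0503. It passed in 9 of 22 alternatives, among them the replicate block (limma adjusted p = 0.00531). Over the 22 the adjusted p ran from 0.00531 to 0.165. It also passed with the block within genotype (limma adjusted p = 0.0164), which is outside that count. Leaving out SoxC_KO replicate 3 (0.048), control_TNF replicate 2 (0.036) or control replicate 3 (0.024) each brought it under the threshold. Its sign was negative in all 22. At 19.8 to 81.3 normalized counts Tlr5 is a low gene, and the added 1 understates its fold change slightly.

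Tlr4 (chr4:66827584-66930284, plus strand), the lipopolysaccharide receptor, had 785, 723 and 928 normalized counts in SoxC_KO_TNF libraries, against 494, 622 and 195 in SoxC_KO libraries. It had 517, 821 and 482 in control_TNF libraries, against 592, 614 and 514 in control libraries. The SoxC_KO groups did not overlap and the control groups did. The log2 difference with TNF was 1.04 (SE 0.38, limma adjusted p = 0.496, 0.0907 with the replicate block and 0.18 with the block within genotype) in SoxC_KO cells and 0.04 (SE 0.38) in control cells. Without the libraries numbered 3 the SoxC_KO difference was 0.44 (SE 0.22). SoxC_KO replicate 3 held the lowest Tlr4 value of the 12 libraries.

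Tlr3 (chr8:45395665-45411080, minus strand), the receptor for double-stranded RNA, had 945, 850 and 572 normalized counts in SoxC_KO_TNF libraries, against 405, 508 and 78.2 in SoxC_KO libraries. It had 550, 970 and 242 in control_TNF libraries, against 600, 591 and 254 in control libraries. As for Tlr4, the SoxC_KO groups did not overlap and the control groups did, and Tlr3 was lowest in the library numbered 3 of every group. The log2 difference in SoxC_KO cells was 1.61 with an SE of 0.69 and a limma adjusted p of 0.638. With the replicate block its SE was 0.32 and the adjusted p 0.0183 in limma, whereas the block within genotype gave an SE of 0.34 and an adjusted p of 0.0581. The adjusted p ran from 0.0183 to 1 over the alternatives (limma). Without the libraries numbered 3 the difference was 0.98 (SE 0.25, limma adjusted p = 0.146). In control cells it was 0.17 (SE 0.69, limma adjusted p = 0.998, and 0.841 with the replicate block). The 3 differences between same-numbered libraries were 1.22, 0.74 and 2.86 in SoxC_KO cells and -0.12, 0.71 and -0.07 in control cells. Averaged over the genotypes the difference was 0.89, with an adjusted p of 0.784 in limma without a block, 0.0384 with the replicate block and 0.0936 with the block within genotype. Gm45542, an antisense gene that overlaps Tlr3, had at most 15.4 normalized counts.

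**Figure D3:**
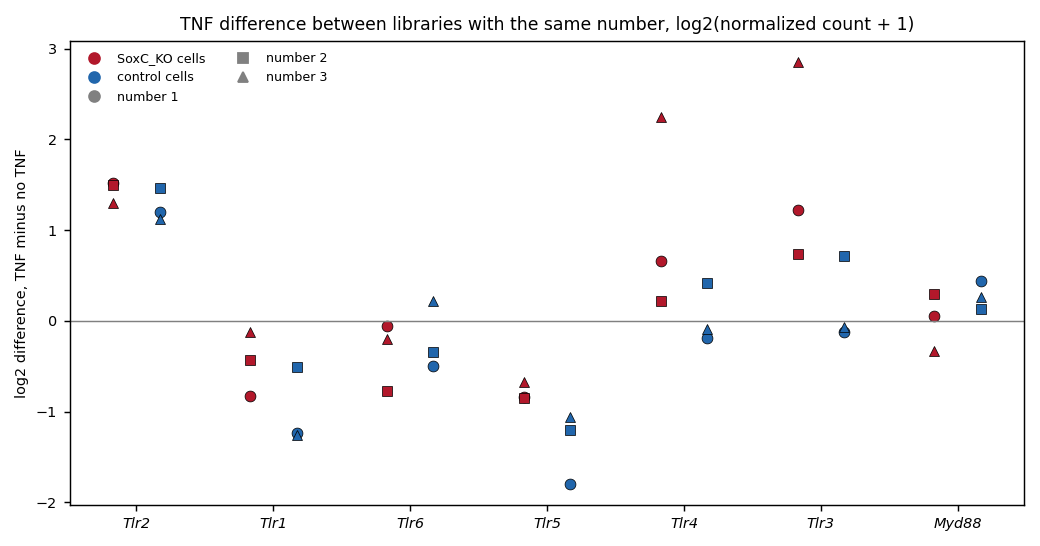
Difference with TNF between libraries of the same number, in log2(normalized count + 1), for the 7 members with the higher levels; color gives the genotype and shape the replicate number. All 6 pairs are above 0 for Tlr2 and below 0 for Tlr1 and Tlr5. The SoxC_KO pairs lie above the control pairs of the same number for Tlr1, Tlr2, Tlr3 and Tlr5.

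With the replicate block, the called members were Tlr2 and Tlr3 in SoxC_KO cells and Tlr2 and Tlr5 in control cells. Of all genes, the block called 2.78% in SoxC_KO and 1.71% in control cells. In the average it called Tlr2 and Tlr3 as higher and Tlr1 and Tlr5 as lower, 4 of 10, against 5.19% of all genes in either direction, 3.01% as higher and 2.18% as lower. The block within genotype called Tlr2 alone in SoxC_KO and in control cells, where it called 1.28% and 0.888% of all genes, and Tlr2 and Tlr5 in the average, where it called 3.13%. By position alone, 4 of the 10 members did not overlap between TNF and no TNF in SoxC_KO cells, against 12.8% of all genes, and 3 of 10 in control cells, against 8.72%. The median log2 difference of the 10 was 0.26 in SoxC_KO and -0.08 in control cells, beside -0.01 and -0.02 over all genes. By sign, 6 of the 10 members were above 0 in SoxC_KO and 5 in control cells. With medians over all genes this near 0, such counts carry no result about the members.

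**Figure D4:**
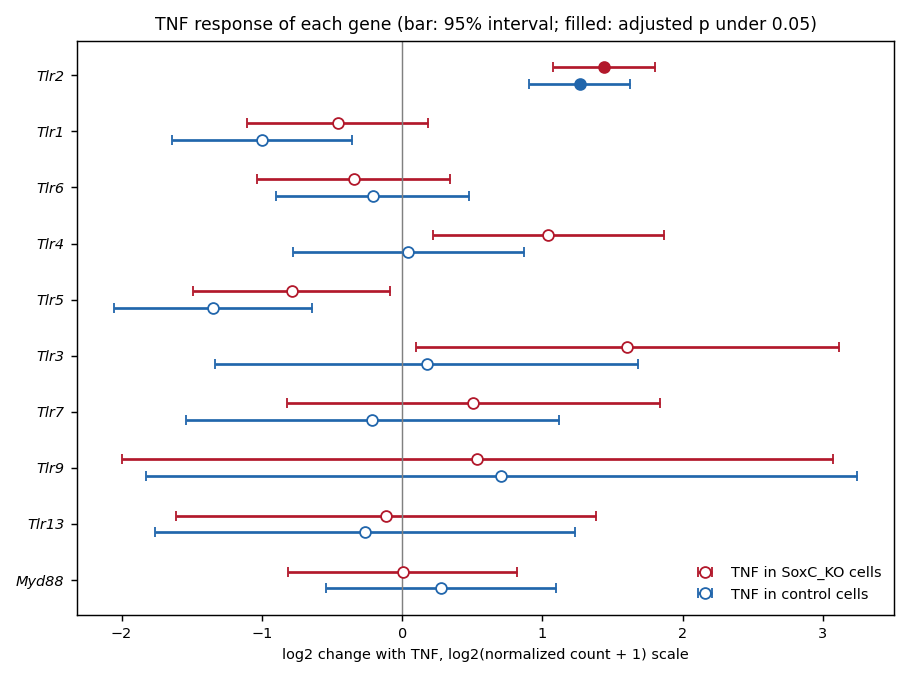
Log2 difference with TNF for each member in SoxC_KO (red) and control cells (blue), with 95% intervals from the limma fit and filled points where the adjusted p was under 0.05. Tlr2 is filled in both genotypes, at 1.44 and 1.26, and no other member is.

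Myd88 (chr9:119335934-119341411, minus strand), the shared adaptor, showed no call with TNF. It had 929, 1037 and 1443 normalized counts in SoxC_KO_TNF libraries and 898, 848 and 1813 in SoxC_KO libraries. It had 1037, 872 and 1726 in control_TNF libraries and 765, 798 and 1435 in control libraries. The groups overlapped in both genotypes, and the libraries numbered 3, at 1434 to 1813, lay above all those numbered 1 and 2, at 765 to 1037. The log2 difference with TNF was 0.00 (95% interval -0.81 to 0.82) in SoxC_KO and 0.28 (-0.54 to 1.10) in control cells. The sign of the value in SoxC_KO cells changed with the setting, including median centring of the libraries. The macrophage marker sum was high in the same 4 libraries numbered 3, and its part in the Myd88 levels was not tested. Myd88 overlaps Acaa1a on the opposite strand, a gene with a mean of 2378 normalized counts. Acaa1a was also highest in the library numbered 3 of each group. Its values there were 2609 in SoxC_KO_TNF, 3969 in SoxC_KO, 3358 in control_TNF and 2677 in control cells. Since it is not given whether counting used strand, reads of the pair could be split wrongly, which was not tested.

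The knockout was set against control cells with and without TNF. With TNF, Tlr2 was at 3154, 3187 and 2518 in SoxC_KO_TNF libraries, against 2573, 2949 and 2418 in control_TNF libraries, a log2 difference of 0.15 (95% interval -0.21 to 0.52). Without TNF it was at 1102, 1127 and 1025 in SoxC_KO libraries, against 1116, 1069 and 1108 in control libraries, a difference of -0.02 (-0.38 to 0.34) whose sign flipped under quantile normalization and median centring. The groups overlapped in both cases.

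For the other members, the knockout difference with TNF was 0.45 (-0.37 to 1.28) for Tlr4, 0.61 (-0.90 to 2.12) for Tlr3, 0.26 (-0.45 to 0.96) for Tlr5, 0.09 (-0.56 to 0.73) for Tlr1 and -0.06 (-0.87 to 0.76) for Myd88. Without TNF it was -0.54 (-1.37 to 0.28) for Tlr4, -0.82 (-2.33 to 0.69) for Tlr3, -0.31 (-1.01 to 0.40) for Tlr5, -0.45 (-1.10 to 0.19) for Tlr1 and 0.22 (-0.60 to 1.04) for Myd88. Tlr6 was at -0.09 (-0.78 to 0.60) with TNF and 0.04 (-0.65 to 0.73) without. The low gene Tlr9 had the largest estimates, 1.17 (-1.36 to 3.71) with TNF and 1.34 (-1.19 to 3.88) without. Tlr7 was at 0.31 (-1.02 to 1.64) and -0.41 (-1.74 to 0.92), and Tlr13 at 0.32 (-1.17 to 1.82) and 0.17 (-1.32 to 1.67). The Tlr3 and Tlr4 values without TNF were 0.02 and -0.04 when SoxC_KO replicate 3 was left out and control replicate 3 was kept. Without all libraries numbered 3 they were -0.39 (SE 0.25) and -0.12 (SE 0.22). SoxC_KO lay below control in 3 of 3 same-numbered pairs for Tlr3 and in 2 of 3 for Tlr4. None of the 10 was called in either comparison by limma, where 0% of all genes were called, with 233 genes at an unadjusted p under 0.05 with TNF and 176 without. The 10 members overlapped between the genotypes in both, against 5.16% and 4.37% of all genes that did not overlap.

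Whether the TNF difference itself depended on the knockout was tested as an interaction, the TNF difference in SoxC_KO cells minus that in control cells. It was 0.17 (95% interval -0.34 to 0.69) for Tlr2, 1.0 (-0.17 to 2.16) for Tlr4, 1.43 (-0.70 to 3.56) for Tlr3, 0.56 (-0.43 to 1.56) for Tlr5, 0.54 (-0.37 to 1.45) for Tlr1 and -0.27 (-1.43 to 0.88) for Myd88. All 6 had a limma adjusted p of 0.884 or, for Myd88, 0.9. No gene of the 18139 was called (0%), and 273 had an unadjusted p under 0.05. The largest values, for Tlr3 and Tlr4, had a limma adjusted p of 0.284 each with the replicate block and 0.395 each with the block within genotype. Without the libraries numbered 3 they were 0.69 for Tlr3 (limma adjusted p = 0.79) and 0.33 for Tlr4 (0.791), and without SoxC_KO replicate 3 alone 0.59 and 0.50. Neither a dependence on the knockout nor its absence is therefore shown for these genes, and the intervals give the sizes the data allow.

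By pattern over the 12 libraries, the genes most like each member were taken as the 3 with the highest Pearson correlation among genes with a mean of at least 50. For Tlr2 they were Vcam1, a leukocyte adhesion molecule (r = 0.984), Trdc (0.979) and Acod1, the enzyme that makes itaconate (0.979). Acod1 was at 736, 721 and 544 in SoxC_KO_TNF and 116, 124 and 142 in SoxC_KO libraries, and at 543, 567 and 490 in control_TNF and 76.9, 114 and 137 in control libraries. For Tlr1 they were Camk2g (0.927), Sh3gl3 (0.917) and Fst, which encodes the activin antagonist follistatin (0.906). For Tlr3 they were Htr2a (0.994), Skil (0.993) and Gbp7 (0.992), for Tlr4 Mtpn (0.994), Dio2 (0.986) and Tbc1d15 (0.984), and for Tlr6 Aldh1a3 (0.932), Rrp1b (0.918) and Taf9b (0.918). For Myd88 they were Asl (0.994), Hmox1, which encodes heme oxygenase (0.992), and Mapk13 (0.991).

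These correlations are descriptions over libraries that share treatment, replicate number and normalization. Skil shared the low values of Tlr3 in the libraries numbered 3, at 2178 in SoxC_KO_TNF, 431 in SoxC_KO, 983 in control_TNF and 1097 in control cells. Mapk13 shared the high values of Myd88 there, at 1081, 1383, 1341 and 1092 in those groups. Among the members, Tlr3 and Tlr4 had the highest correlation (r = 0.911), Tlr1 and Tlr5 followed (0.828), and Tlr6 and Myd88 had the most negative one (-0.817).

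The rest of the pathway was followed by lists of genes. The co-receptors and chaperones that fold, load or deliver the receptors had 1 of 18 measured genes called, and in the average TNF comparison alone, where 0.877% of all genes were called as higher. It was Slc15a3, an endolysosomal peptide transporter, which rose by 1.22 (limma adjusted p = 0.00962). Slc15a3 was at 925, 1245 and 1029 in SoxC_KO_TNF and 490, 411 and 834 in SoxC_KO libraries, and at 1332, 1138 and 1454 in control_TNF and 437, 384 and 580 in control libraries. The groups did not overlap in either genotype.

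Cd14 and Ly96, which bring lipopolysaccharide to Tlr4, were chosen for mention after their values were seen. Cd14 was at 471, 531 and 675 in SoxC_KO_TNF and 278, 302 and 605 in SoxC_KO libraries, and at 534, 404 and 815 in control_TNF and 281, 281 and 508 in control libraries. Its average difference of 0.64 had a limma adjusted p of 0.492 and was called with the replicate block. Cd14 was highest in the library numbered 3 of each group, as was the macrophage marker sum, which includes Cd14. Single macrophage markers such as Mrc1 were not raised there. Ly96 was at 259, 214 and 407 in SoxC_KO_TNF and 157, 166 and 145 in SoxC_KO libraries, and at 299, 202 and 167 in control_TNF and 154, 171 and 205 in control libraries, with an average difference of 0.58 (limma adjusted p = 0.328).

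Below the receptors, none of 16 adaptors and receptor-proximal kinases was called in any TNF comparison, and none of 13 kinases of the TAK1, IKK and TBK1 group. Their most abundant members were Ube2n, a ubiquitin-conjugating enzyme, with an average difference of 0.02, and Map3k7, which encodes TAK1, with 0.09. With the replicate block the average called 1 of the 16, Peli2, as lower and 3 of the 13, Ikbke, Map3k8 and Tbk1, as higher, and the block within genotype called Peli2 and Ikbke of these. Of 17 transcription factors, Nfkb2, the precursor of the p52 subunit, rose by 0.81 in the average (limma adjusted p = 0.0238, with a range of 0.00142 to 0.128 over the alternatives), and the replicate block called 6. Of 5 other receptors that signal through Myd88, none was called, and the most abundant, the interleukin-33 receptor gene Il1rl1, had an average difference of 0.80 (limma adjusted p = 0.149). Il1rl1 was called as higher with the replicate block, in the average (limma adjusted p = 0.00252) and in SoxC_KO cells (0.00725), and with the block within genotype (0.0134 and 0.0361).

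Negative regulators of the pathway had 5 of 26 genes called as higher in the average, Tnip3, Tnfaip3, Nfkbie, Tnip1 and Nfkbia, and none as lower, beside 0.877% of all genes called as higher. Tnip3, an inhibitor that binds the protein A20, was at 414, 357 and 495 in SoxC_KO_TNF and 102, 106 and 115 in SoxC_KO libraries, and at 341, 307 and 380 in control_TNF and 88.3, 125 and 147 in control libraries. The groups stood far apart in both genotypes, and Tnip3 rose by 1.95 in SoxC_KO (limma adjusted p = 0.00483) and 1.53 in control cells (0.0188). These calls held in 21 and 16 of 23 alternatives. Tnfaip3, which encodes A20 itself, rose by 1.37 in the average (limma adjusted p = 0.00304), Nfkbie by 1.27 (0.00357), Tnip1 by 1.07 (0.00707) and Nfkbia by 0.88 (0.0117). The median of the 26 was 0.16 in the average, beside -0.00 over all genes.

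Genes that TLR ligands induce in macrophages had 9 of 17 called as higher in the average, beside 0.877% of all genes, and none as lower, with a median difference of 1.47. Ccl5, a chemokine, rose by 2.63 in SoxC_KO cells (limma adjusted p = 0.00198) and 3.28 in control cells (0.0012). Il1a, a cytokine, rose by 2.49 in SoxC_KO (limma adjusted p = 0.00483) and 1.86 in control cells (0.0228), and Acod1 by 2.37 in SoxC_KO (0.00198) and 2.31 in control cells (0.00264). Cxcl10 rose by 1.56 (limma adjusted p = 0.0239) in SoxC_KO and 1.55 (0.0299) in control cells. Ccl3 and Csf3 were called as higher in control cells, by 3.16 (limma adjusted p = 0.0374) and 2.63 (0.0496), and their differences in SoxC_KO cells were 2.64 (0.0933) and 2.04 (0.148). Of 23 alternatives each, the control call held in 10 for Ccl3 and 6 for Csf3, and the Cxcl10 call in 15 in SoxC_KO and 11 in control cells. The Il1a call held in 21 in SoxC_KO and 15 in control cells, and the Ccl5 and Acod1 calls in 22 each in both. TNF is known to induce many of these genes through its own receptors, and the list does not tell the pathways apart.

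Of 15 cytosolic sensors, 2 were called as higher in the average, beside 0.877% of all genes. Nlrp3, the inflammasome sensor, was at 303, 310 and 283 in SoxC_KO_TNF and 123, 68.1 and 75.8 in SoxC_KO libraries, and at 338, 407 and 308 in control_TNF and 116, 100.03 and 110 in control libraries. It rose by 1.78 in SoxC_KO (limma adjusted p = 0.00973) and 1.68 in control cells (0.0138), calls that held in 19 and 17 of 23 alternatives. Nod2, which senses a cell wall peptide, rose by 1.10 in the average (limma adjusted p = 0.00649). Of 15 endogenous ligands of the joint, Dcn, the proteoglycan decorin and also a marker of these cells, rose by 0.75 (limma adjusted p = 0.0121, and 0.0013 to 0.1 over the alternatives) in the average. Over all lists 7 genes were called in SoxC_KO cells, 10 in control cells and 19 in the average, all as higher. Of all genes, 0.292%, 0.32% and 1.17% were called in these comparisons in either direction. With the replicate block 32, 29 and 41 list genes were called, and with the block within genotype 22, 23 and 35, all as higher but Peli2 in the average. Calls over all genes rose as well, to 2.78%, 1.71% and 5.19% with the replicate block. With the block within genotype they were 1.28%, 0.888% and 3.13%. In neither knockout comparison nor the interaction was a list gene called by limma.

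**Figure D5:**
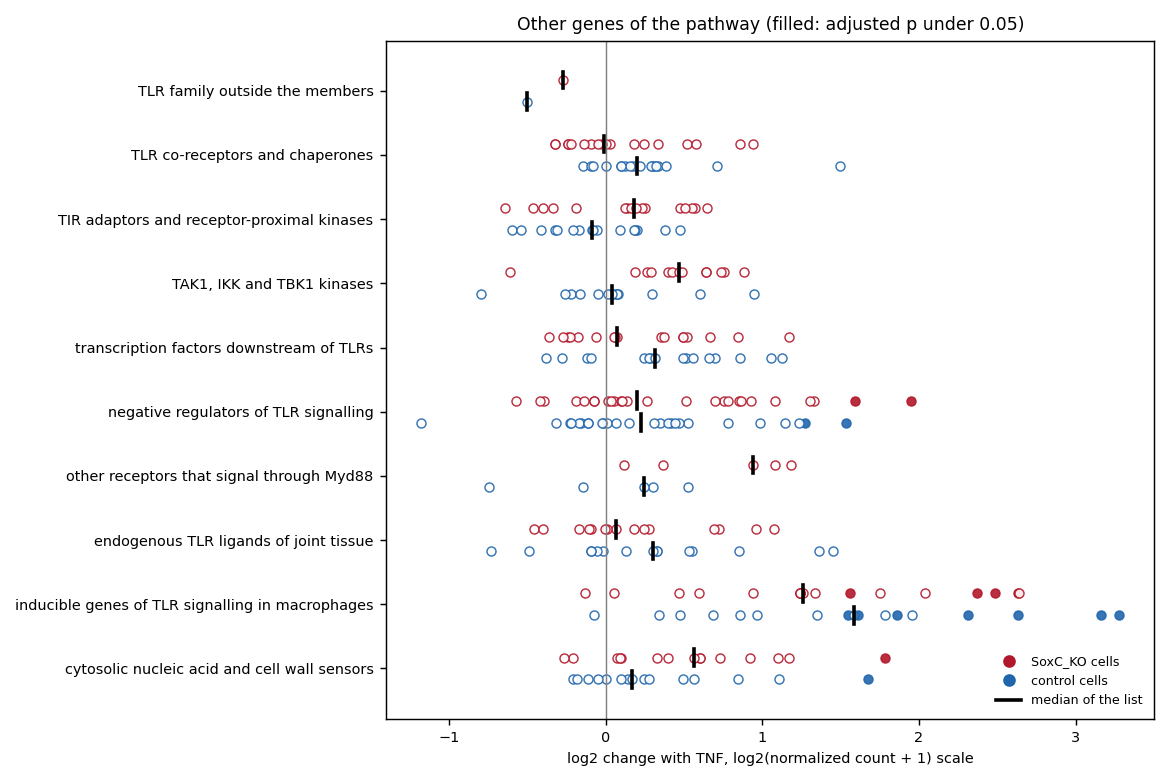
Log2 difference with TNF of each measured gene of the pathway lists, in SoxC_KO cells (red, upper row) and control cells (blue, lower row), filled where the limma adjusted p was under 0.05, with a black bar at the median of the list. The genes that TLR ligands induce in macrophages have medians of 1.26 in SoxC_KO and 1.59 in control cells, and the medians of the other lists lie under 1.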

How the data were processed

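RNA of 12 mouse synoviocyte libraries was measured by poly(A)-enriched paired-end sequencing, per the labels' protocols. The deposited values are log2 of normalized counts, with 0 for values at or under 1, for 53341 genes. Per the submitters' processing notes, DESeq and the build mm10 were used. The aligner, annotation and strand setting were not found in them or the labels. Sample titles gave the group and the replicate number. Values were returned to the linear scale, genes at 10 or more in at least 3 libraries were kept, and log2(normalized count + 1) was fitted with limma 3.58.1 (R 4.3.3, statmod 1.5.0) with a mean per group, an intensity trend and Benjamini-Hochberg adjustment over 18139 genes at 0.05. Whole reads could not be recovered, so no count model was run. Totals of 19.59 to 23.11 M are after normalization, so raw depth and its counting error are unknown, and low genes are less precise.

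The labels do not say whether equal numbers mark pairs, so correlations of deviations from the group mean were taken between same-numbered libraries. Within a genotype they were 0.34, 0.148 and 0.501 in SoxC_KO and 0.103, 0.55 and 0.715 in control cells. Between the genotypes they were 0.0537, 0.189 and 0.526 with TNF and 0.457, 0.515 and 0.707 without it. Each library enters its own group mean, so the shift of the libraries numbered 3 alone can make all these correlations positive. Differently numbered libraries were not compared, so pairing within or across the genotypes is not settled. A block within each genotype was added after the data were seen, as a form that ties no numbers across the genotypes. Its values stand beside the results and outside the counts of alternatives. The members, lists and tests were chosen with earlier results of these data known. Named genes were the 10 members, called list genes (up to 4 per comparison by size; the highest-mean gene where none was called), and the 3 genes most correlated with each member of mean 50 or more. Since no member failed the filter, the exact permutation test planned for such genes was not run. The fit was tested on simulated data. Coordinates are the file's and match GENCODE vM21, from which exon lengths came; promoters are RefSeq, GRCm38.p6, with 8 members matched. Figures used matplotlib 3.10.9 and pandas 2.3.3 in Python 3.11.15. Alternatives are in the closing section.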

Additional observations from a re-analysis of the deposited data

How the results depend on the processing

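Among the values reported for single members under the alternatives, 838 kept their direction and their side of the threshold, 13 passed it, 8 no longer passed it and 25 changed sign, none of these past the threshold. The members called with TNF in SoxC_KO cells numbered 1, and 2 with the replicate block, 0 in a fit of only the 2 groups compared and 0 without the libraries with liver transcripts. In control cells these counts were 1, and 2, 0 and 0 in the same settings. In the average they were 1, 4 with the block, and 2 with a pseudocount of 5, quantile normalization, median centring, no intensity trend or without the libraries numbered 3. Leaving out single libraries gave 1 to 1 in SoxC_KO, 0 to 1 in control and 1 to 2 in the average. The cause of these changes was not tested, beyond the fewer libraries that some settings hold.

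The list genes called numbered 7 in SoxC_KO cells, and 32 with the block, 0 with only the 2 groups, 25 without the libraries numbered 3, 2 without those with liver transcripts and 4 to 10 without single libraries. In control cells they numbered 10, and 29, 0, 29 and 2 in those settings, 6 with median centring and 2 to 16 without single libraries. In the average they numbered 19, and 41 with the block, 37 without the libraries numbered 3 and 16 to 22 without single libraries. Calls over all 18139 genes moved with these settings too. In the average, 159 were called as higher and 53 as lower without a block, 546 and 395 with the replicate block, and 415 and 238 without the libraries numbered 3. Without those libraries they were 157 and 29 in SoxC_KO cells, from 44 and 9, and 194 and 73 in control cells, from 52 and 6. The block within genotype, added after the data were seen, called 1, 1 and 2 members and 22, 23 and 35 list genes in SoxC_KO, control and the average. The replicate block changed no other call on a member than those given above.

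Signs changed for some members, among them the Tlr3 knockout difference without TNF, -0.82 in the report. With median centring, Myd88 with TNF in SoxC_KO cells was -0.0466 and the Tlr2 knockout difference without TNF 0.0413. That Tlr2 difference was 0.00741 with quantile normalization and 0.0287 without the libraries numbered 3. Without those libraries the Myd88 knockout difference with TNF was 0.0464, and without the libraries with liver transcripts the TNF differences in control cells were -0.30 for Tlr3 and -0.20 for Tlr4. Without single libraries, Myd88 ran from -0.19 to 0.36 with TNF in SoxC_KO, -0.00913 to 0.57 in control and -0.00282 to 0.32 in the average, from -0.26 to 0.23 for the knockout with TNF, -0.13 to 0.51 without it and -0.57 to 0.0774 for the interaction. In the same way Tlr3 and Tlr4 with TNF in control cells ran from -0.30 to 0.70 and -0.20 to 0.19, Tlr1 in the knockout with TNF from -0.11 to 0.29, and Tlr2 and Tlr3 in the knockout without TNF from -0.0467 to 0.0218 and -1.32 to 0.0179. A filter at 50 removed Tlr7, Tlr9 and Tlr13, and raw depth, which limits the low members, is unknown.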
